A study of Mus musculus with 3 samples.

Results

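Gamma-delta T cells of mouse dorsal skin were examined, with a split into cells with and without a transcript of the delta variable segment Trdv4. The cells were selected on single-cell counts of unique molecular identifiers (UMIs, each standing for 1 captured transcript). Cells entered with 300 or more genes detected and with mitochondrial UMIs of 10% or less. An entered (kept) cell was called a gamma-delta T cell when it held at least 1 UMI of Trdc or Trdv4, at least 1 UMI of Cd3d, Cd3e or Cd3g, and no UMI of the fibroblast receptor gene Pdgfra or the macrophage receptor gene Csf1r. The rule gave 223 cells of 33511 kept cells, of which 144 were Trdv4-positive and 79 Trdv4-negative. Values of the 7 genes in this rule chose the members and are given below only as a description.

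The study sequenced 3 libraries of full-thickness dorsal skin from wild-type C57BL/6J mice, with 1 library per condition. The labels give an age of 8 weeks without saying at which point, and the study's methods list it with the purchase of the mice. With 12 weeks of irradiation it cannot be the age of UV and Rux mice when skin was taken. UV mice were exposed on alternate days over 12 weeks to UVA at 0.60 and UVB at 3.5 mW/cm2 and received the ointment vehicle (DMSO in Aquaphor). Rux mice had the same irradiation, each time followed by an ointment with 1.5% ruxolitinib, an inhibitor of the kinases JAK1 and JAK2. CON mice received vehicle without irradiation, and skin was taken a day after the last exposure. How many mice each library holds is not given in the sources used here, so no difference between conditions could be tested, and the intervals below are 95% intervals for counting error only.

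Gamma-delta T cells recognise their targets through a receptor made of a gamma and a delta chain, and settle in the skin in waves during development. The cells of the mouse epidermis, called dendritic epidermal T cells, pair the gamma segment Tcrg-V5 with the delta segment Trdv4, carry receptors of the natural killer type and make growth factors for keratinocytes. A second set, found mainly in the dermis, makes interleukin-17, responds to interleukin-1 and interleukin-23, and uses Tcrg-V6 with Trdv4 or Tcrg-V4 with other delta segments. Trdv4 is thus shared by an epidermal and a dermal set and does not separate them on its own.

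The ends of the 3 variable segments that these sets use are shown because the counts below are of these genes (which bases the counted reads covered is not known from the deposited counts). Each is the last 150 bases of the segment on the plus strand of GRCm38 (the build named mm10 in the files), read from the genome with the GENCODE annotation. Capitals run from the cysteine codon of the last in-frame tyrosine-cysteine pair to the end of the segment, the germline start of the third complementarity-determining region.
Trdv4, chr14:54075366-54075515: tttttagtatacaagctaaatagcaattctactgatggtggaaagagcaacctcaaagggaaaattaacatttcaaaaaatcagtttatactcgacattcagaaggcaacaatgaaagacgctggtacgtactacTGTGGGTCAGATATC
Tcrg-V5, chr13:19192576-19192725: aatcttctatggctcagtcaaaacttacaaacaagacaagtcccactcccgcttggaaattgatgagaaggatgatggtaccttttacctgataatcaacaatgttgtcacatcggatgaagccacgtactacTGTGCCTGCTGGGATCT
Tcrg-V6, chr13:19190780-19190929: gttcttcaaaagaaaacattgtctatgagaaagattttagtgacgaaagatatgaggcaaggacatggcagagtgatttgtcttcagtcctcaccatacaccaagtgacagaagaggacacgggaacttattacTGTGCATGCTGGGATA
The 2 gamma segments were 52.2% identical over these bases, with a longest shared run of 9 bases, so a read from one is not easily counted for the other. Trdv4 is an exonic segment of the gene at chr14:54074905-54075515, upstream of the delta constant gene Trdc at chr14:54142851-54148868 with its 4 exons. Tcrg-C1, the constant gene of the Tcrg-V5 and Tcrg-V6 chains, lies at chr13:19214103-19217024.

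Some properties of the libraries bear on all results. The labels give the animals as female, yet the Y-linked gene Ddx3y stood at 110 CPM (UMIs of a gene per 1000000 UMIs of the class) in CON, 116 CPM in UV and 122 CPM in Rux over all kept cells. Xist, which is expressed from the inactive X chromosome of female cells, was between 0.101 and 0.117 CPM in the same libraries, so all 3 go against the label in the same way. CON and UV shared 50 cell barcodes, CON and Rux 28, and UV and Rux 40, but no barcode of a gamma-delta cell was shared. The kept cells held 163139181 UMIs in CON, 131543241 in UV and 128925600 in Rux, and the gamma-delta cells 1635171, 225586 and 299773 of these. Median UMIs of a gamma-delta cell were 5884 in CON, 5573 in UV and 5313 in Rux, so depth per cell was similar while the number of cells was not. The numbers hide 8 CON cells that were deeper than any gamma-delta cell of UV or Rux (36619 UMIs at most), the deepest with 111643 UMIs. Without them CON kept 137 gamma-delta cells and 65.2% of its UMIs. For several genes described below, values without these cells, or the share of UMIs in a single cell, are given beside the main value.

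The receptor and CD3 genes were found in every library. Trdc, the delta constant chain, was at 1163 CPM (1111 to 1216) in CON with a UMI in 143 of 145 cells, at 864 CPM (747 to 995) in UV in 29 of 31 cells, and at 1148 CPM (1029 to 1275) in Rux in 45 of 47 cells. Trdv4 was at 335 CPM in CON, 217 CPM in UV and 230 CPM in Rux. Of the CD3 chains, which carry the receptor signal into the cell, Cd3g was at 1199, 519 and 641 CPM and Cd3e at 645, 257 and 307 CPM in CON, UV and Rux. Both CD3 genes were thus highest in CON, as was Trdv4, whereas Trdc was at nearly the same level in CON and Rux. These CON levels include the deepest cells, without which CON kept 65.2% of its UMIs. Levels of these genes without them are not given, so the likeness of Trdc in CON and Rux may depend on those cells. Members just inside the threshold, with exactly 1 UMI of Trdc and Trdv4 together, numbered 10 in CON, 8 in UV and 8 in Rux. Just outside it, 135, 65 and 65 kept cells had a Trdc or Trdv4 UMI without any CD3 UMI.

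Il2rb, the receptor chain for interleukin-2 and interleukin-15 and a marker not used by the rule, was at 807 CPM (764 to 852) in CON, 860 CPM (743 to 990) in UV and 797 CPM (699 to 905) in Rux, with a UMI in 138, 29 and 44 cells. These intervals overlap. Tcrg-C1, also outside the rule, was at 183 CPM in CON in 107 cells, at 106 CPM in UV in 14 cells and at 210 CPM in Rux in 25 cells, and at 262 CPM in CON without the deepest cells (ratio of Rux to CON -0.31, -0.73 to 0.08). Tcrg-C2 was at 15.3, 26.6 and 33.4 CPM and Tcrg-C4 at 26.9, 48.8 and 40.0 CPM. Il2rb and the gamma constant genes, none of them used by the rule, were thus detected in each library, whereas the presence of the other markers follows from the rule.

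Variable segments other than Trdv4 were rarely read. Tcrg-V5, the gamma segment of the epidermal cells, had 22 UMIs in 20 CON cells, 19 of them Trdv4-positive. It had none in the 31 UV and 47 Rux cells, counts that allow a share of cells with a UMI of up to 11.2% and 7.55%, against 13.8% (8.63% to 20.5%) with a UMI in CON. These shares concern detection and not the cells that carry the segment. Tcrg-V6 was seen in 3 CON, 2 UV and 5 Rux cells. Tcrg-V1 had a UMI in 4, 1 and 2 cells, Tcrg-V4 in 1, 2 and 1, Trdv1 in 1, 0 and 1, Trdv2-2 in 1, 2 and 1, and Trdv5 in 2, 0 and 3 cells of CON, UV and Rux.

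Conventional T cell genes were low or absent, apart from the beta constant genes. Trac, the alpha constant chain, was at 42.2 CPM in CON, 26.6 CPM in UV and 46.7 CPM in Rux, with a UMI in 34, 4 and 12 gamma-delta cells. In the alpha-beta T cells of the same libraries, defined by a CD3 and a Trac UMI without Trdc, Trdv4, Pdgfra or Csf1r, it was at 414, 415 and 522 CPM. Cd8a and Cd8b1 had no UMI in any gamma-delta cell. The beta constant genes were present, with Trbc1 at 203, 222 and 454 CPM and Trbc2 at 201, 328 and 277 CPM, and a UMI of either in 123, 26 and 41 cells. In alpha-beta T cells Trbc2 was at 601, 531 and 607 CPM. Trac defines that class, so its gap between the classes follows in part from the definition and cannot be set beside that of Trbc2.

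Gamma-delta cells took a larger share of the kept cells in CON than in either irradiated library. There were 145 in CON (1.204%, exact binomial interval 1.02% to 1.42%), 31 in UV (0.274%, 0.186% to 0.388%) and 47 in Rux (0.464%, 0.341% to 0.616%). The CON interval lay above both others, while those of UV and Rux overlapped. Trdv4-positive cells were 112 in CON (0.930%, 0.767% to 1.12%), 15 in UV (0.132%, 0.0741% to 0.218%) and 17 in Rux (0.168%, 0.0977% to 0.268%). Trdv4-negative cells were 33 in CON (0.274%), 16 in UV (0.141%) and 30 in Rux (0.296%), and the intervals of CON and Rux overlapped. The Trdv4-positive share of the gamma-delta cells was 77.2% (69.6% to 83.8%) in CON, 48.4% (30.2% to 66.9%) in UV and 36.2% (22.7% to 51.5%) in Rux. With each cell thinned to 2000 UMIs it was 58.0%, 52.4% and 35.7%, and the CON interval then no longer lay above the others. The same was so with at least 2 UMIs of Trdc and Trdv4, with cells with a Trac UMI left out and with doublets removed, 4 of 7 alternatives in all. Thinning also moved the share of Trdv4-negative cells among kept cells to 0.518% (0.391% to 0.674%) in CON, above the 0.194% (0.115% to 0.306%) of Rux. Alpha-beta T cells were fewest in CON, with 96, 118 and 187 cells, and gamma-delta cells were 60.2%, 20.8% and 20.1% of both classes together.

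**Figure D1:**
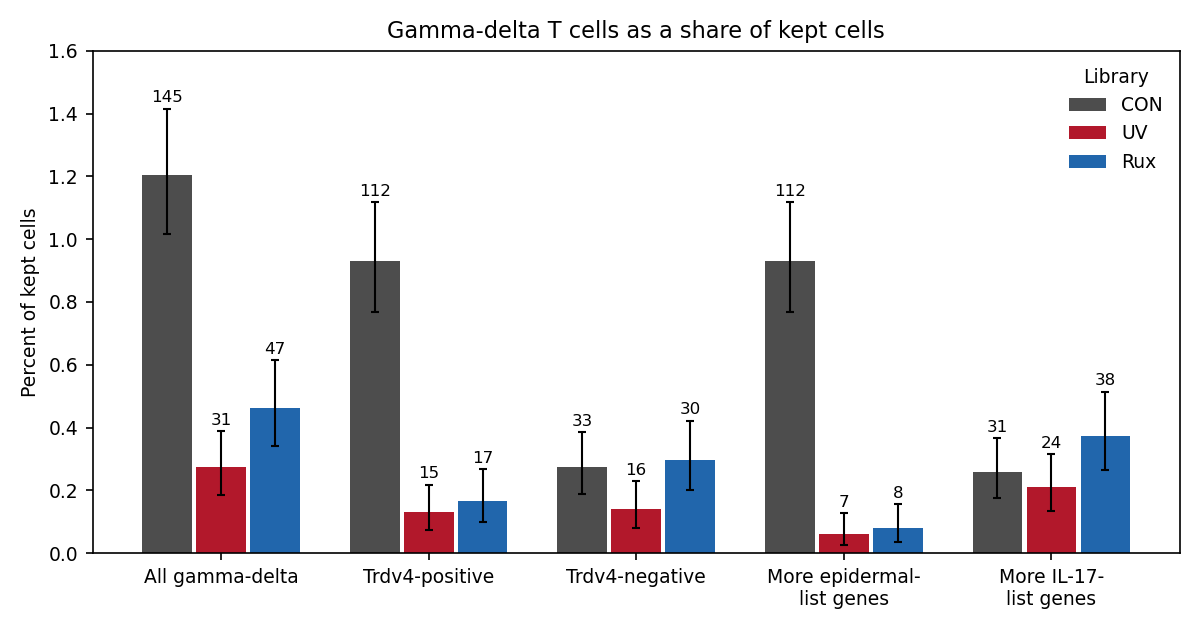
Percent of kept cells (vertical axis) in each library for all gamma-delta cells, Trdv4-positive cells, Trdv4-negative cells, and cells with more epidermal-list or more interleukin-17-list genes, with exact 95% binomial intervals and cell numbers. CON stands above UV and Rux for all gamma-delta, Trdv4-positive and epidermal-list cells, whereas intervals overlap for cells with more interleukin-17-list genes.

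Trdc UMIs were also counted in cells selected by genes of other cell types, where free or stray transcripts may be found. In fibroblasts with Pdgfra and Col1a1 UMIs, 0.807% of cells in CON, 0.447% in UV and 0.681% in Rux had a Trdc UMI at median depths of 9558, 9910 and 13886 UMIs. In endothelial cells the shares were 1.54%, 0.385% and 0.491%, and in keratinocytes 2.01%, 0% and 0.251%. Gamma-delta cells were not excluded from the endothelial cells and keratinocytes. Only 139 of the 145 CON gamma-delta cells had under 1% keratin UMIs, so the CON keratinocytes include gamma-delta cells, and 18 of them had a Cd3e UMI. Their share is thus not one of stray transcripts alone. Among gamma-delta cells, selected on this gene, 143 of 145, 29 of 31 and 45 of 47 had a Trdc UMI. Keratinocytes had the same order of libraries as the gamma-delta share. Cells with at least 1% keratin UMIs were 9.11% of kept cells in CON, 2.48% in UV and 3.94% in Rux, and suprabasal cells with at least 1% Krt1 and Krt10 UMIs were 1.93%, 0.177% and 0.414%. Langerhans cells numbered 16, 7 and 12 (0.133%, 0.0618% and 0.118% of kept cells), with intervals that overlapped. The part of epidermal yield in the gamma-delta share was not tested.

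The Trdv4-positive cells of CON and those of UV and Rux carried different genes. For this description 2 lists were used, 25 genes of epidermal and 24 genes of interleukin-17-making gamma-delta cells, none of them in the rule, and for each cell the genes with a UMI were counted. Of 112 Trdv4-positive CON cells, 100 had more epidermal-list genes and 11 more interleukin-17-list genes (1 tied). In UV 1 of 15 Trdv4-positive cells had more epidermal-list genes and 14 had more interleukin-17-list genes, and in Rux the numbers were 1 and 16 of 17. The label of epidermal Trdv4 cells therefore held for most such cells of CON but not for those of UV or Rux. Trdv4-negative cells had more interleukin-17-list genes in 20 of 33 CON, 10 of 16 UV and 22 of 30 Rux cells. With cells thinned to 2000 UMIs, 93 of 111 Trdv4-positive CON cells, 1 of 15 in UV and 1 of 17 in Rux had more epidermal-list genes.

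**Figure D2:**
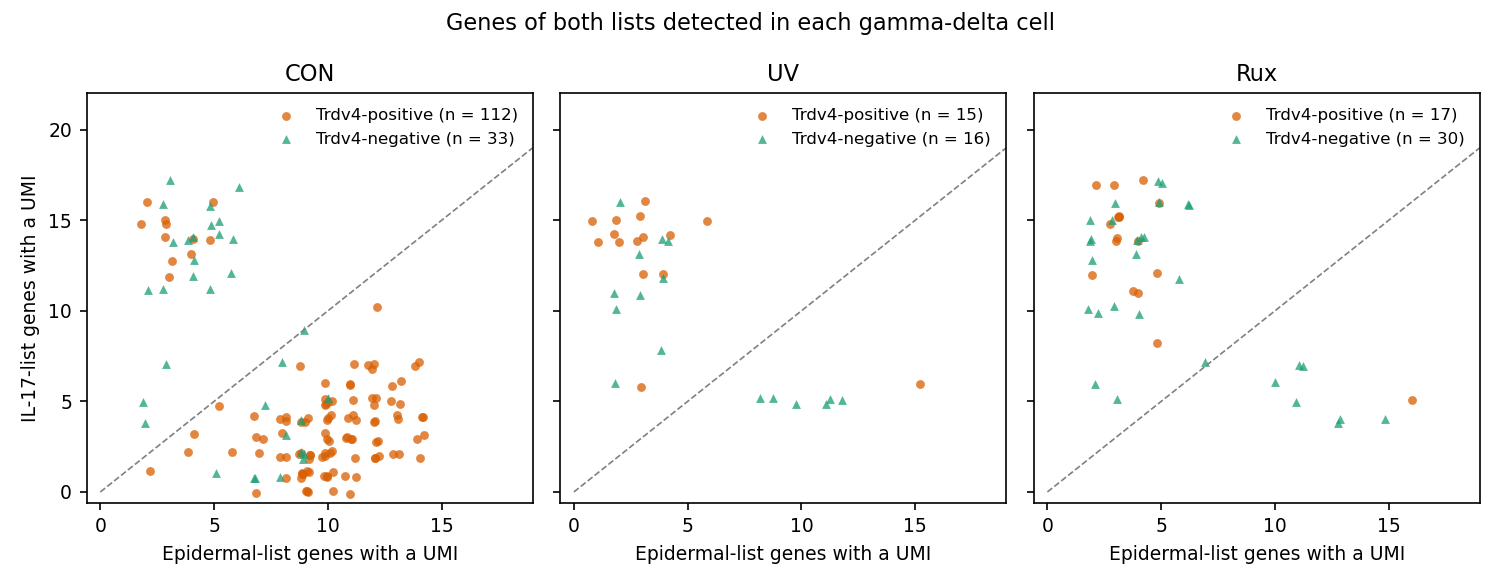
Each point is a gamma-delta cell, placed by the number of the 25 epidermal-list genes (horizontal axis) and the 24 interleukin-17-list genes (vertical axis) with a UMI, 1 panel per library, coloured by Trdv4, with a small random shift so that points do not hide each other. CON cells gather at many epidermal-list and few interleukin-17-list genes (medians 9 and 4), UV cells at medians of 3 and 12, and Rux cells at medians of 4 and 14.

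Over all gamma-delta cells, those with more epidermal-list genes were 112 in CON (0.930% of kept cells), 7 in UV (0.0618%, 0.0248% to 0.127%) and 8 in Rux (0.0789%, 0.0341% to 0.155%). Those with more interleukin-17-list genes were 31 in CON (0.258%, 0.175% to 0.365%), 24 in UV (0.212%, 0.136% to 0.315%) and 38 in Rux (0.375%, 0.265% to 0.514%). The CON interval lay above both others for the first class, whereas the 3 intervals of the second class overlap, which does not show that its shares were equal. These classes are ranges of a count rather than cell types: 5 CON cells, 0 UV cells and 1 Rux cell lay within 1 gene of a tie. Cells with more interleukin-17-list genes had a median of 4, 3 and 3 epidermal-list genes in CON, UV and Rux, and cells with more epidermal-list genes a median of 3, 5 and 5 interleukin-17-list genes.

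Genes of the epidermal list followed this split. Fcer1g, an adaptor chain for activating receptors, was at 724 CPM in Trdv4-positive CON cells, in 100 of 112 of them, but at 49.6 CPM in UV and 43.0 CPM in Rux, each from 1 cell. Cd7, a surface protein of early T and natural killer cells, was at 486 CPM in 95 of the 112 cells and had no UMI in the 15 UV and 17 Rux cells. Nkg7, a granule protein of cytotoxic cells, was at 494, 74.4 and 34.4 CPM and Klrd1, part of the CD94 receptor, at 156, 24.8 and 17.2 CPM. Prf1, which encodes perforin, was at 168 CPM in 77 CON cells, at 0 in UV and at 43.0 CPM from 1 Rux cell. In Trdv4-negative cells CON was instead the lowest for Fcer1g (77.8, 230 and 213 CPM), Cd7 (65.2, 124 and 169 CPM) and Nkg7 (75.7, 172 and 185 CPM). The 33 Trdv4-negative CON cells held 475434 UMIs, of which single cells had 111643, 76597 and 64389. Levels without these deep cells are not given, and the place of CON in this order may depend on them.

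Some epidermal-list genes did not separate the libraries in this way. Il2rb was at 991 CPM in CON, 612 CPM in UV and 886 CPM in Rux Trdv4-positive cells. Itgae, the integrin that binds E-cadherin of keratinocytes, was at 125, 116 and 181 CPM. Klrk1, the activating receptor NKG2D, was at 203, 165 and 551 CPM. Xcl1, a chemokine for dendritic cells, was at 286 CPM in 74 CON cells, while the 413 CPM of UV and 327 CPM of Rux came from 1 cell each.

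**Figure D3:**
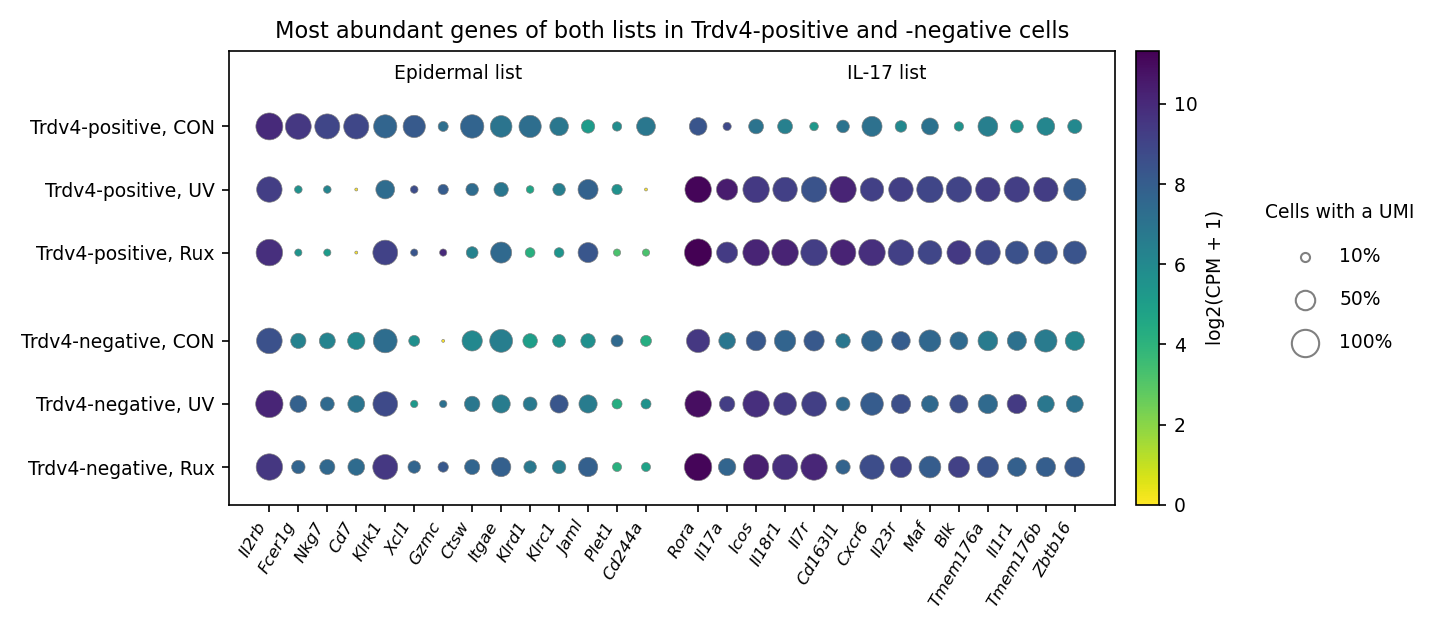
The 14 most abundant genes of the epidermal and of the interleukin-17 list (columns) in Trdv4-positive and Trdv4-negative cells of each library (rows), where dot area is the percent of cells with a UMI and colour is log2(CPM + 1). Fcer1g, Cd7 and Nkg7 have their largest dots in Trdv4-positive CON cells, and Il23r and Cd163l1 theirs in Trdv4-positive UV and Rux cells.

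Interleukin-17-list genes stood high in the Trdv4-positive cells of UV and Rux. Il23r, the receptor chain for interleukin-23, was at 64.7 CPM in 19 of 112 CON cells, at 603 CPM in 12 of 15 UV cells and at 577 CPM in 15 of 17 Rux cells. Rora, a nuclear receptor of type 17 lymphocytes, was at 324 CPM in 46 CON cells, at 2331 CPM in 14 UV cells and at 2564 CPM in all 17 Rux cells. Il17a itself was at 447 CPM in 9 CON cells, 1430 CPM in 9 UV cells and 654 CPM in 10 Rux cells. Few CON cells thus made much Il17a, whereas most UV and Rux cells had a UMI. The scavenger receptor gene Cd163l1 was at 129, 1190 and 1222 CPM in Trdv4-positive cells and at 118, 172 and 218 CPM in Trdv4-negative cells. Its relative 5830411N06Rik had the reverse pattern, at 3.45, 49.6 and 0 CPM in Trdv4-positive and 196, 306 and 452 CPM in Trdv4-negative cells. In the fit over the 3 libraries the log2 difference of Trdv4-positive from Trdv4-negative cells was -4.75 (SE 0.76) for 5830411N06Rik and 1.75 (SE 0.529) for Cd163l1, in the same direction in 3 of 3 libraries, but both missed the threshold after adjustment over all genes (edgeR adjusted p = 0.413 and 1).

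A set of genes outside both lists was seen in CON gamma-delta cells and in next to none of UV or Rux. Kcnma1, a calcium-gated potassium channel, was at 476 CPM (443 to 510) in 108 of 145 CON cells and had no UMI in UV or Rux, which makes it at least 35.8-fold lower in UV and at least 47.5-fold lower in Rux when those libraries are set to a floor of 3 counts. Zmat4, a zinc finger gene, was at 601 CPM (564 to 639) in 100 CON cells, at 0 in UV (at least 45.2-fold lower) and at 33.4 CPM in 3 Rux cells. Avil, an actin-binding protein, was at 226 CPM in 93 CON cells and at 0 in UV (at least 17-fold lower) and in Rux (at least 22.6-fold lower). Col27a1, a fibrillar collagen, was at 322 CPM in 99 CON cells, at 4.43 CPM in 1 UV cell and at 0 in Rux. Among CON cells a Kcnma1 UMI was found in 96 of 112 Trdv4-positive and 12 of 33 Trdv4-negative cells, and Zmat4 in 92 and 8, Avil in 86 and 7 and Col27a1 in 90 and 9 of these. By the list classes Kcnma1 was found in 104 of 112 CON cells with more epidermal-list genes and 2 of 31 with more interleukin-17-list genes.

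The same genes were low in alpha-beta T cells, with Kcnma1 at 10.4, 3.46 and 13.4 CPM and no Zmat4 UMI in any of the 3 libraries. At least 2 of Avil, Col27a1, Kcnma1, Mest and Ptn, genes that were among the lowest against CON in both UV and Rux, were found in 107 of 145 CON gamma-delta cells (73.8%), in 0 of 31 UV cells and in 0 of 47 Rux cells, counts that follow from how the genes were chosen. Cells with 2 or more of them were 5 of 96, 4 of 118 and 4 of 187 alpha-beta T cells, 58 of 299 (19.4%), 11 of 200 (5.50%) and 13 of 323 (4.02%) cells with a CD3 UMI that were not gamma-delta cells, and 12.99%, 6.80% and 4.65% of all kept cells in CON, UV and Rux. Other genes among the 10 lowest in UV against CON were Gsdme, a pore-forming gasdermin (log2 ratio -5.25), the imprinted gene Mest (-5.21), the growth factor gene Ptn (-5.16), the melanosome gene Pmel (-5.18, with 54.2% of its CON UMIs in 1 cell), Pitpnm2 (-5.00) and Elovl6, a fatty acid elongase (-4.38).

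The 15 cells of UV and Rux with more epidermal-list genes were also unlike the 112 of CON in genes outside the lists, which were named after their values were seen. Kcnma1, Avil and Mest had no UMI in the 7 UV and 8 Rux cells, and Zmat4 had UMIs in 2 of the Rux cells, against 98 of 112 in CON. Txk, a T cell kinase, was at 1421 CPM in 7 of 7 UV cells and 1183 CPM in 8 of 8 Rux cells, but at 16.5 CPM in 10 of 112 CON cells. Ms4a4b, a membrane protein of T cells, was at 576 CPM in 6 of 7 UV cells, 1070 CPM in 7 of 8 Rux cells and 19.1 CPM in 5 of 112 CON cells. All but 1 of the 7 and 1 of the 8 cells were Trdv4-negative.

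Gamma-delta cells were next compared with alpha-beta T cells of the same libraries, which the design allows to be tested with the 3 libraries as blocks. At an adjusted p under 0.05 (edgeR quasi-likelihood test with Benjamini-Hochberg adjustment over 10723 genes), 32 genes differed, 0.298% of those tested, with 16 higher in gamma-delta cells (0.149%) and 16 lower, while 1117 had an unadjusted p under 0.05. Every one of the 32 had the same direction in 3 of 3 libraries. The genes of the rule and of the alpha-beta gate were left out. Without the UV library no gene passed (612 at an unadjusted p under 0.05), without CON 228 passed (29 of the 32 among them) and without Rux 35 (15 of the 32), and without the library block 11 did. The 3 libraries are the only replication here, and whether they came from separate animals is not given.

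Higher genes included the receptor gene Tcrg-C1, at 183, 106 and 210 CPM in gamma-delta cells of CON, UV and Rux against 0, 1.15 and 1.49 CPM in alpha-beta cells (log2 difference 7.26, SE 0.492, edgeR adjusted p = 0.0039). Cd163l1 was at 125, 718 and 607 CPM against 1.30, 19.6 and 3.73 CPM (6.101, SE 0.452, edgeR adjusted p = 0.0039). Fstl4, a secreted follistatin relative, was at 88.1, 208 and 80.1 CPM against 0, 0 and 1.49 CPM (7.20, SE 0.653, edgeR adjusted p = 0.00884). The unnamed locus Gm43434 followed the same pattern, at 71.6, 106 and 127 CPM against 0, 0 and 1.49 CPM. All 4 genes separated the classes with no overlap between libraries.

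Among the other higher genes, Igf1r, the receptor for insulin-like growth factor, was at 970, 1609 and 1731 CPM in gamma-delta cells of CON, UV and Rux and at 219, 235 and 121 CPM in alpha-beta cells (log2 difference 2.90, SE 0.348, edgeR adjusted p = 0.0258). Vegfa, the growth factor of blood vessels, was at 135, 115 and 70.1 CPM against 19.5, 13.8 and 17.9 CPM (2.58, SE 0.329, edgeR adjusted p = 0.0289). Myo1e, a myosin motor of the cell membrane, was at 1274, 887 and 661 CPM against 384, 248 and 156 CPM (1.87, SE 0.201, edgeR adjusted p = 0.0167). The remaining higher genes were Mtcl1, Olfr60, Adam12, Prelid2, Dscam, Bpnt1, Irak2, Rhoq and Gem, with log2 differences from 4.37 for Mtcl1 to 1.53 for Gem.

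**Figure D4:**
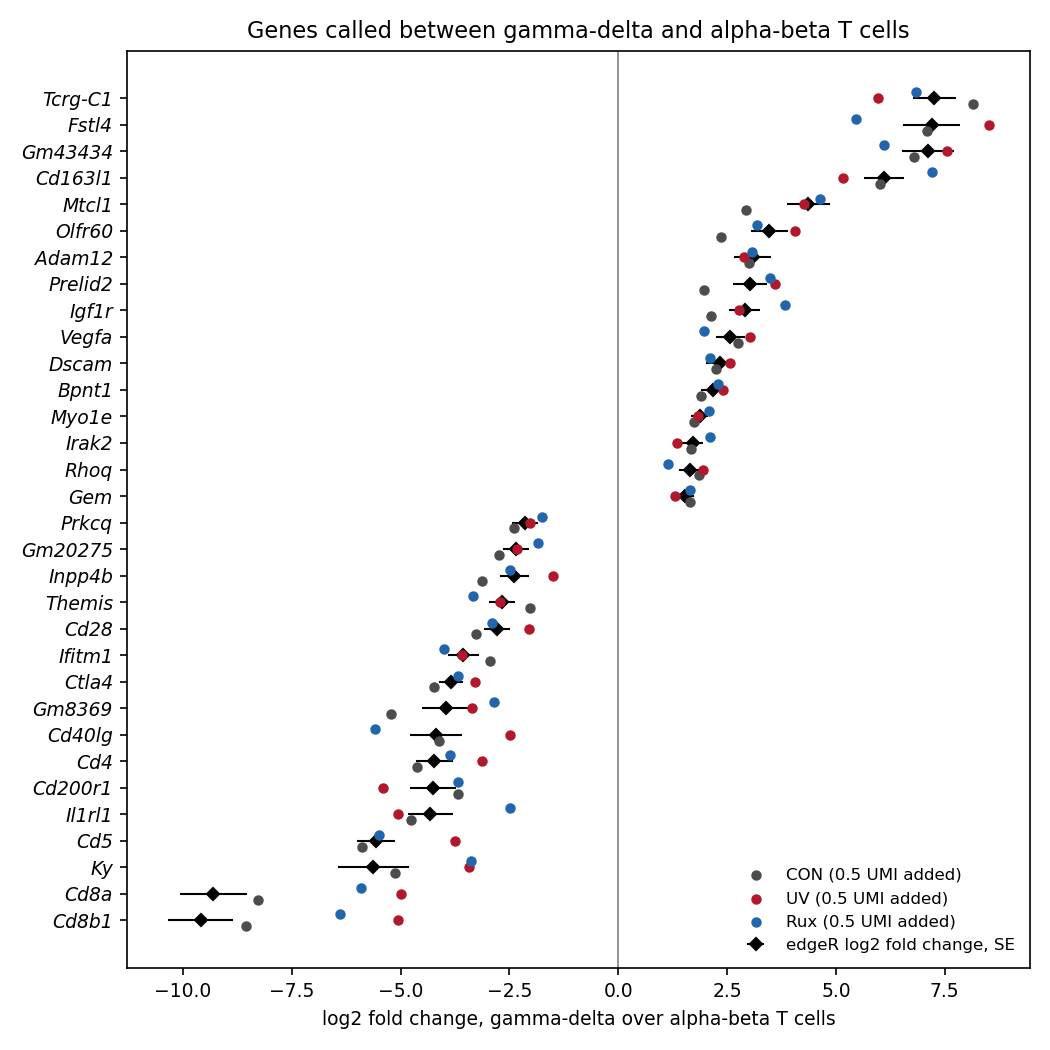
The 32 genes past the adjusted threshold between gamma-delta and alpha-beta T cells (rows), with the edgeR log2 difference and its standard error (diamonds and bars) and the log2 ratio of each library (points) on the horizontal axis. Points of the 3 libraries fall on the same side of 0 for each gene.

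Of the fixed alpha-beta T cell markers 4 of 7 tested were lower (Cd4, Cd5, Cd8a, Cd8b1). Cd8a was at 0 in gamma-delta cells and at 93.4, 70.4 and 99.1 CPM in alpha-beta cells of CON, UV and Rux, and Cd8b1 at 0 against 113, 73.8 and 140 CPM. Cd5, which dampens receptor signals, was at 2.45, 8.87 and 3.34 CPM against 161, 150 and 227 CPM (log2 difference -5.56, SE 0.435, edgeR adjusted p = 0.00444). Ctla4, an inhibitory receptor, was at 23.2, 62.1 and 40.0 CPM against 444, 632 and 534 CPM (-3.83, SE 0.278, edgeR adjusted p = 0.0039), and the costimulatory receptor Cd28 was at 41.6, 129 and 73.4 CPM against 402, 536 and 560 CPM. Themis, a signalling protein of thymocyte selection, was at 57.5, 66.5 and 50.04 CPM against 234, 453 and 522 CPM. Cd4, Cd40lg, Il1rl1, Cd200r1, Ifitm1, Prkcq, Inpp4b, Ky, Gm8369 and Gm20275 were lower too, with log2 differences from -5.63 for Ky to -2.14 for Prkcq.

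The counts by list stand against 0.298% of all tested genes past the threshold in either direction (0.149% higher). By lists, 1 of 14 tested T cell receptor and CD3 genes was higher (Tcrg-C1) and 5 lower (Cd28, Cd4, Cd8a, Cd8b1, Themis). Of the interleukin-17 list 1 of 21 tested genes was higher (Cd163l1), with a median log2 difference of 2.02 against -0.08 over all genes. Of the epidermal list 0 of 22 passed in either direction, with a median of -0.12. Repair factors had 1 of 12 higher (Vegfa), activation and checkpoint genes 2 of 28 lower (Cd5, Ctla4) and interferon-stimulated genes 1 of 21 lower (Ifitm1). No gene passed among 35 JAK-STAT, 16 cytotoxic, 28 residency, 20 cell cycle and 28 oxidative stress genes. The median of the cell cycle genes was -1.32.

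Trdv4-positive and Trdv4-negative cells were compared in the same way, and 1 of 8082 genes passed (0.0124%), with 196 at an unadjusted p under 0.05. It was Areg, which encodes amphiregulin, a growth factor for epithelial repair. Areg was at 1923 CPM in Trdv4-positive and 284 CPM in Trdv4-negative cells of CON, 2587 and 535 CPM in UV, and 697 and 76.3 CPM in Rux. It was higher in Trdv4-positive cells in 3 of 3 libraries (log2 difference 2.68, SE 0.306, edgeR adjusted p = 0.0479). In UV a single cell gave 62.0% of the Trdv4-positive and another 76.8% of the Trdv4-negative Areg UMIs. Areg passed without UV, but not without CON (0 genes) or without Rux (0 genes), and its adjusted p ranged from 5e-11 to 1 over the 10 alternatives, of which 4 kept the call. For 13 list genes, described at the end, the ratio of Trdv4-positive to Trdv4-negative cells had opposite directions in CON and in both irradiated libraries.

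Conditions were compared by the summed UMIs of all gamma-delta cells, without a test, and a gene is called past 2-fold when its log2 ratio of CPM is at least 1 in size. Genes needed a mean of 100 CPM over the 2 libraries, 30 UMIs in both together and a UMI in 10 cells. UV against CON and Rux against CON share the CON library, and UV is shared in the same way. Of 1974 genes in UV against CON, 209 were past 2-fold higher (10.6%) and 195 lower (9.88%). Of 1756 in Rux against UV, 32 were higher (1.82%) and 96 lower (5.47%), and of 1896 in Rux against CON, 251 were higher (13.2%) and 284 lower (15%). Over all gamma-delta cells 7.29% of genes were thus past 2-fold between Rux and UV, against 20.5% between UV and CON and 28.2% between Rux and CON. Among the cells with more interleukin-17-list genes the shares were 9.98%, 14% and 26.2%. Without the deepest CON cells they were 9.98%, 10% and 10.6%, so in this class the gap was not seen once those cells were left out.

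The interleukin-17 list stood apart in UV against CON. Of its 24 genes 16 met the minimum, and 16 were past 2-fold higher, among them Blk, Il18r1 and Zbtb16, and 0 lower (10.6% and 9.88% of all genes), with a median log2 ratio of 2.09 against -0.06 over all genes. In Rux against CON 15 of 16 were higher and 0 lower (13.2% and 15% of all genes), with a median of 2.22. In Rux against UV 1 of 17 was higher (Ccr2) and 2 lower (Il17a, Il1r1), against 1.82% and 5.47% of all genes, with a median of 0.16. Il23r was at 121 CPM in CON, 501 CPM in UV and 537 CPM in Rux, and Rora at 439, 2150 and 2402 CPM, so UV and Rux were close to each other and above CON. The share of cells with more interleukin-17-list genes in each sum was 21.4% in CON, 77.4% in UV and 80.9% in Rux, and the ratios were therefore repeated in those cells alone. Over all gamma-delta cells the list had 14 to 16 genes higher in UV than in CON under other scalings, cell filters and doublet removal, 13 of 17 without the deepest CON cells (median 1.43, with 10.2% of all genes higher and 10.2% lower) and 7 of 16 in Trdv4-negative cells (median 0.86, with 17.3% and 13.1%). The Trdv4-negative sum of CON kept its deepest cells.

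The 31 CON, 24 UV and 38 Rux cells with more interleukin-17-list genes included 2 of the deepest CON cells (111643 and 64389 UMIs), which carried 5 and 7 genes of the list and so much RNA that the class kept only 56.2% of its CON UMIs without them. Levels within this class are therefore given for the other 29 CON cells. By this definition no UV or Rux cell could be left out, and a UV cell that stayed held 36619 of the 169985 UMIs of its class. These cells were chosen by list genes, so levels of those genes are a description. Of 1769 genes 97 were higher (5.48%) and 80 lower (4.52%) in UV than in CON, of 1714 genes 73 were higher (4.26%) and 98 lower (5.72%) in Rux than in UV, and of 1746 genes 79 were higher (4.52%) and 106 lower (6.07%) in Rux than in CON. With the 2 cells the list had 6 of 17 genes higher and 0 lower in UV against CON (6.4% and 7.6% of all genes), and without them 4 higher (Cd163l1, Il1r1, Tmem176a, Tmem176b) and 2 lower (5830411N06Rik, Il17f), with a median log2 ratio of 0.06. In Rux against CON it had 11 of 17 higher and 2 lower with the 2 cells (12.8% and 13.4% of all genes, median 1.31). Without them 3 were higher and 2 lower (median 0.48).

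The list as a whole was thus near even between UV and CON in this class, while some of its genes were not. Il23r was at 814 CPM in CON, 665 CPM in UV and 725 CPM in Rux, and its ratio of UV to CON was -0.29 (-0.64 to 0.05). Rora was at 2415, 2688 and 2962 CPM. Il17a was highest in CON, at 2539 CPM (2336 to 2756) against 1394 CPM (1222 to 1584) in UV and 509 CPM (419 to 612) in Rux, a log2 ratio of UV to CON of -0.86 (-1.09 to -0.64). With the 2 deepest CON cells, which held no Il17a UMI, it was at 1428 CPM in CON, level with UV, and over all gamma-delta cells it was at 351, 1051 and 377 CPM. Without the deepest CON cells the value of all CON gamma-delta cells was 538 CPM, above that of Rux (ratio of Rux to CON -0.51, -0.82 to -0.22). The direction of Il17a between CON and either irradiated library therefore depended on which cells were summed.

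Il17a was lower in Rux than in UV on both bases. Over all gamma-delta cells the log2 ratio of Rux to UV was -1.48 (-1.82 to -1.15), and within cells with more interleukin-17-list genes -1.45 (-1.79 to -1.13). The cells with a UMI were 14 of 31 in UV and 22 of 47 in Rux, so the share of cells was alike and the UMIs per cell were not. A single UV cell gave 85 of 237 UMIs, and 1 CON cell 134 of 574. Il17f, its partner cytokine, was at 82.6, 173 and 86.7 CPM in CON, UV and Rux, with a log2 ratio of Rux to UV of -0.99 (-1.77 to -0.24). Il1r1, the receptor for interleukin-1, was at 76.4 CPM in CON, 643 CPM in UV and 290 CPM in Rux, and its ratio of Rux to UV was -1.14 (-1.55 to -0.75). Within the cells with more interleukin-17-list genes Il1r1 was at 212 CPM (ratio of UV to CON 1.70, 1.21 to 2.22), 694 CPM and 392 CPM, so UV was highest there too.

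JAK-STAT genes are of interest because ruxolitinib blocks the kinases of this pathway, which carry signals of interleukins and interferons to STAT transcription factors. Of 35 genes, 18 met the minimum in UV against CON, and 8 were past 2-fold higher (Cish, Ifngr1, Il2ra, Il6st, Il7r, Jak2, Pim1, Stat4) and 1 lower (Il12rb2), against 10.6% and 9.88% of all genes, with a median log2 ratio of 0.84. In Rux against CON 10 of 17 were higher and 2 lower, against 13.2% and 15% of all genes, with a median of 1.45. In Rux against UV 1 of 20 was higher (Stat5b) and 1 lower (Socs3), against 1.82% and 5.47%, with a median of 0.01 against 0.02 over all genes. The list's median was thus close to 0 between Rux and UV.

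Cish, a feedback inhibitor switched on by STAT5, was at 97.9 CPM (83.3 to 114) in CON, 270 CPM (207 to 347) in UV and 300 CPM (241 to 369) in Rux. Pim1, a kinase induced by STAT signals, was at 330, 984 and 901 CPM. The ratio of Rux to UV was 0.15 (-0.33 to 0.64) for Cish and -0.13 (-0.39 to 0.13) for Pim1, intervals that include 0. Socs3, the feedback inhibitor of STAT3 signals, differed, at 157 CPM (138 to 177) in CON, 186 CPM (134 to 252) in UV and 70.1 CPM (43.4 to 107) in Rux, a ratio of Rux to UV of -1.39 (-2.24 to -0.62). Stat5b was at 98.5 CPM in CON, 120 CPM (78.9 to 174) in UV and 337 CPM (274 to 409) in Rux, with UMIs in 57, 15 and 34 cells. The ratio of Rux to UV was 1.47 (0.87 to 2.16).

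Of the list's receptor genes, Ifngr1, Il2ra, Il6st and Il7r were past 2-fold higher in UV than in CON, and Ifngr1, Il21r, Il2ra, Il2rg and Il7r in Rux than in CON. Il7r, which sustains lymphocytes, was at 113 CPM (96.9 to 130) in CON, 461 CPM (377 to 559) in UV and 907 CPM (803 to 1022) in Rux, with UMIs in 28, 26 and 44 cells. Il2ra, the high-affinity chain for interleukin-2, was at 144, 820 and 651 CPM, and the transcription factor Stat4 at 149, 816 and 711 CPM. Il12rb2, for interleukin-12, was highest in CON, at 448 CPM in 111 of 145 CON cells, 173 CPM in UV and 117 CPM in Rux, although its ratio of UV to CON turned to 0.88 in Trdv4-negative cells. The list looked different within the cells with more interleukin-17-list genes. There 1 of 20 genes was higher (Socs3) and 3 lower (Bcl2, Stat5a, Stat5b) in UV than in CON (5.48% and 4.52% of all genes), in place of 4 higher and 1 lower of 18 with the 2 deepest CON cells (6.4% and 7.6%). In Rux against CON 0 of 17 were higher and 1 lower (Stat5a), against 4.52% and 6.07% of all genes. With the 2 deepest CON cells 6 were higher (12.8% of all genes higher and 13.4% lower). In Rux against UV 3 of 19 were higher (Bcl2, Il7r, Stat5b) and 1 lower (Socs3), against 4.26% and 5.72% of all genes in this class.

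In these cells Cish was at 469 CPM in CON, 353 CPM in UV and 369 CPM in Rux, and Pim1 at 916, 1118 and 1031 CPM, with intervals of the ratio of UV to CON from -0.89 to 0.06 for Cish and from 0.00 to 0.58 for Pim1. Il7r was at 756, 518 and 1053 CPM, lowest in UV (ratio of Rux to UV 1.02, 0.67 to 1.40). Stat5b had the same order, at 248, 106 and 401 CPM, and Socs3 the opposite, at 84.1, 194 and 45.0 CPM (ratio of Rux to UV -2.06, -3.29 to -1.05). The gap of Cish and Pim1 between CON and the irradiated libraries, seen over all gamma-delta cells, was therefore not seen in this class, whereas Socs3 and Stat5b kept their order between UV and Rux.

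**Figure D5:**
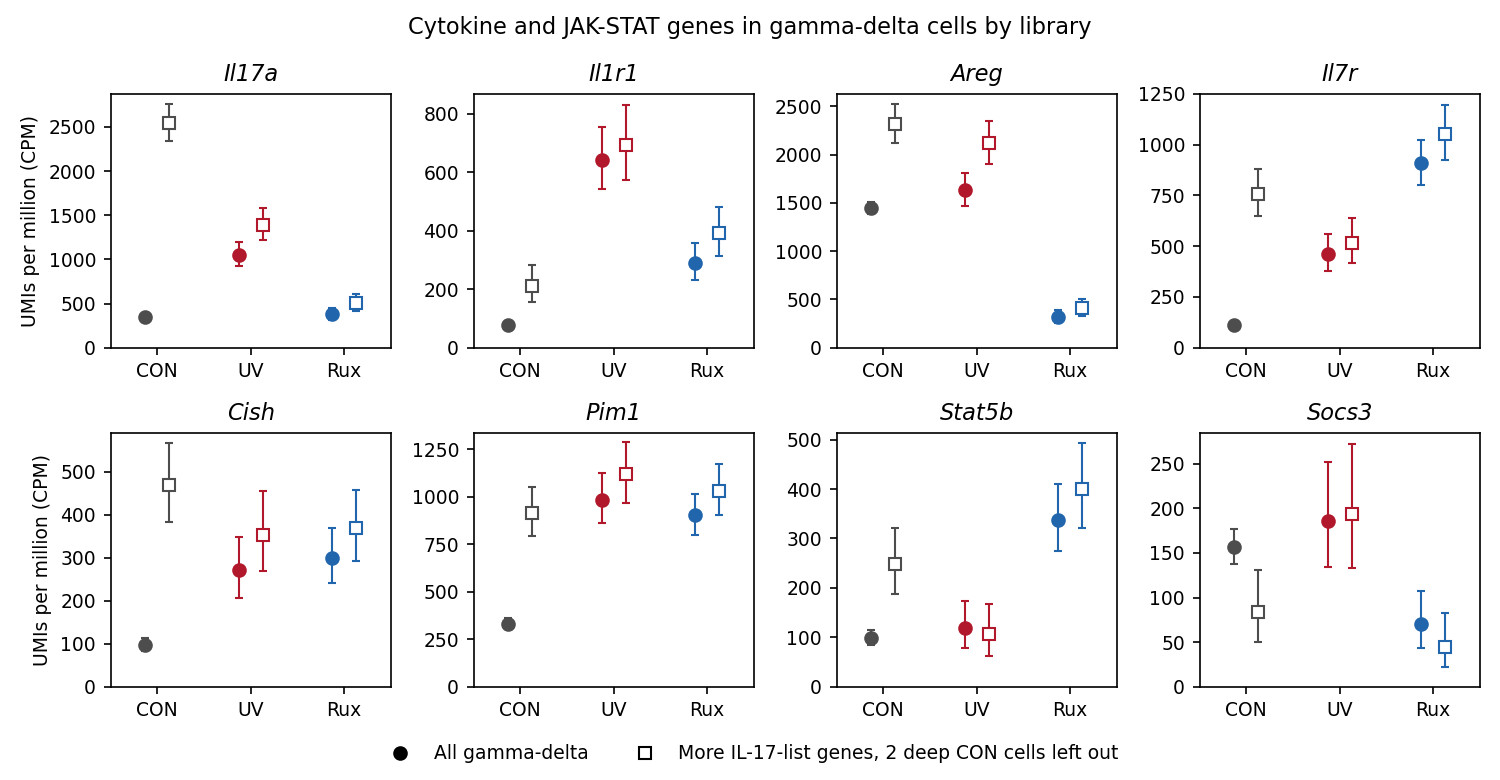
CPM (vertical axes) of Il17a, Il1r1, Areg, Il7r, Cish, Pim1, Stat5b and Socs3 in each library, for all gamma-delta cells (filled circles) and for cells with more interleukin-17-list genes without the 2 deepest CON cells (open squares), with exact 95% Poisson intervals for counting error. Il17a, Il1r1, Areg and Socs3 are lower in Rux than in UV on both bases and Il7r and Stat5b higher, while Il17a and Cish of CON are the lowest circles and the highest squares.

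Epithelial repair factors had few members above the minimum. Areg was at 1446 CPM in 102 of 145 CON cells, 1636 CPM in 15 of 31 UV cells and 317 CPM in 14 of 47 Rux cells. Without the deepest CON cells it was at 2101 CPM in CON, and the order of CON and UV turned (log2 ratio of UV to CON -0.36, -0.52 to -0.20). Its log2 ratio of Rux to UV was -2.36 (-2.71 to -2.04), although 1 UV cell gave 194 of 369 UMIs, and that of Rux to CON was -2.18 (-2.50 to -1.89). In cells with more interleukin-17-list genes it was at 2314, 2118 and 410 CPM, again lowest in Rux. Of 5 genes tested in Rux against UV, 3 were lower (Anxa1, Areg, Il6) and none higher, against 5.47% and 1.82% of all genes. In UV against CON 2 of 6 were higher (Il6, Ptgs2), against 10.6% of all genes. Il6 and Anxa1 rested on single cells, with 65 of 88 and 55 of 91 UV UMIs from 1 cell. Ptgs2, the enzyme that starts prostaglandin synthesis, was at 56.9, 310 and 200 CPM in CON, UV and Rux.

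The activation and checkpoint list was near the background of all genes (10.6% higher and 9.88% lower in UV against CON). That background was 13.2% and 15% in Rux against CON and 1.82% and 5.47% in Rux against UV. In UV against CON 3 of 20 were higher (Cd69, Icos, Pdcd1) and 3 lower (Egr1, Fos, Nr4a2), in Rux against CON 3 (with Tnfaip3) and 4 (with Jun) of 20, and in Rux against UV 0 of 19 were past 2-fold. Pdcd1, the inhibitory receptor PD-1, was at 28.7 CPM in CON, 368 CPM in UV and 277 CPM in Rux, and was also higher within the cells with more interleukin-17-list genes (195, 477 and 356 CPM, log2 ratio of UV to CON 1.28, 0.74 to 1.86). Fos, an immediate early gene, was at 1535, 306 and 227 CPM, with 497 of the 2510 CON UMIs in 1 cell and 1198 CPM in CON without the deepest cells, while Junb was at 1992, 1964 and 2202 CPM. The residency list had 3 of 12 higher (Cd69, Cxcr4, Cxcr6) and 2 lower (Cd2, Runx3) in UV against CON, 5 (with Bhlhe40, Itgal and Selplg) and 1 (Cdh1) of 13 in Rux against CON, and 0 and 2 (Cdh1, Itga4) of 14 in Rux against UV. The background shares of each comparison given above apply to this list too. The UV to CON ratios of Cxcr6 (-0.39), Runx3 (0.71) and Egr1 (0.24) turned in cells with more interleukin-17-list genes without the deepest CON cells. That of Cd2 turned to 1.13 in Trdv4-negative cells.

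Too few effector genes met the minimum to set their counts apart from the same background. Of the cytotoxic list 1 of 6 was higher (Srgn) and 1 lower (Nkg7) in UV against CON (10.6% and 9.88% of all genes), 3 of 7 higher (Ccl5, Gzmc, Srgn) and 1 lower in Rux against CON (13.2% and 15%), and 0 of 4 past 2-fold in Rux against UV (1.82% and 5.47%). Srgn, the proteoglycan of secretory granules, was at 582, 2194 and 2195 CPM. Ccl5 was at 43.4, 31.0 and 1021 CPM, but 169 of its 306 Rux UMIs and 93.0% of its 71 CON UMIs were in 1 cell each. Epidermal-list genes were split over all gamma-delta cells, with 2 of 11 higher (Jaml, Klrc1) and 3 lower (Cd7, Fcer1g, Nkg7) in UV against CON and 1 of 8 each way in Rux against UV (Klrk1 higher, Klrc1 lower). The median of the list in UV against CON changed sign with the cells summed, from 0.09 to -0.55 without the deepest CON cells (1 higher and 4 lower of 12) and -0.98 with equal weight for each cell (1 higher and 5 lower of 11, against 10.1% and 11.8% of all genes). In Trdv4-negative cells it went the other way, with 5 of 5 genes higher in UV (median 1.57) and 9 of 9 higher in Rux (median 1.45) than in CON, where 17.3% and 16.4% of all genes were higher and 13.1% and 17% lower. A gene low in CON could meet the minimum there through its level in UV or Rux alone. The CON sum also kept its deepest cells, so these counts are a description only. Klrk1 was at 190, 293 and 651 CPM and its ratio of Rux to UV was 1.15 (0.74 to 1.58).

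Few cell cycle genes could be compared. Of 20 genes 4 met the minimum, and 3 were past 2-fold lower in UV and in Rux than in CON (Pcna, Stmn1, Tubb5), against 9.88% and 15% of all genes. The ratio of UV to CON of Tubb5 turned to 0.24 in cells with more interleukin-17-list genes without the deepest CON cells. Stmn1, a regulator of microtubules in dividing cells, was at 558 CPM in 68 of 145 CON cells, 35.5 CPM in UV and 26.7 CPM in Rux, and at 328 CPM in CON without the deepest cells, where 2 of the 4 genes (Pcna, Stmn1) stayed past 2-fold lower in UV. Mki67, which marks cycling cells, was at 189 CPM in 32 CON cells (123 CPM without the deepest), 8.87 CPM in UV and 6.67 CPM in Rux, below the minimum for a ratio. Oxidative stress and DNA damage genes had 0 higher and 2 lower of 16 in UV against CON (Atf3, Mt2), near the 10.6% and 9.88% of all genes. In Rux against UV they had 0 and 2 of 13 (Mt1, Prdx1), against 1.82% and 5.47%. The metallothionein Mt1 was at 1127, 652 and 160 CPM in CON, UV and Rux. Interferon-stimulated genes had 0 of 4 past 2-fold in UV against CON and 1 of 3 higher (Ly6a) in Rux against UV, too few to set against these shares.

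Among all genes past the minimum, those most above CON in UV included several that rested on a single cell. Il33, Acta2, Ccl7 and Igfbp5 had 75.3%, 92.5%, 84.9% and 83.3% of their UV UMIs in 1 cell. Txk was at 33.6 CPM in CON and 452 CPM in UV (log2 ratio 3.74, but -0.22 in cells with more interleukin-17-list genes without the deepest CON cells), Tnfsf11, the cytokine RANKL, at 38.5 and 497 CPM (3.68), Csf1 at 14.7 and 195 CPM (3.72), and Gpr183, a receptor for oxysterols, at 57.5 and 559 CPM (3.28). The genes most above UV in Rux were Snx20, at 44.3 CPM in UV and 167 CPM in Rux (1.86), Hlf, at 97.5 and 354 CPM (1.83), Hnrnpll (1.69), Stat5b (1.47), Phf6 (1.47, but -0.28 in cells with more interleukin-17-list genes), Ly6a (1.42) and Pde3b (1.41). Those most above CON in Rux were Ccl5 (4.55), Ms4a4b (4.30), Gm2682 (4.28), C3 (4.03) and Adam19 (3.97).

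Keratinocyte genes were among the lowest in Rux against UV. Krt17, a keratin of stressed and follicular keratinocytes, was at 1525 CPM in UV and 76.7 CPM in Rux (log2 ratio -4.28), with 84.6% of the UV UMIs in 1 cell, and Fabp5, Dsp, Lgals7, Gja1, Krt5, S100a14, Egfr and Hspb1 were also among the lowest 10. Over the keratinocyte marker list, 12, 11 and 12 of 12 genes had a UMI in the gamma-delta cells of CON, UV and Rux, with a summed level of 6679, 4318 and 477 CPM and Lgals7, Krt17 and Lgals7 as the most abundant gene. Of this list 0 of 9 were higher and 4 lower in UV against CON, against 10.6% and 9.88% of all genes. In Rux against UV 6 of 6 were lower, against 5.47% of all genes. Of the 974 UMIs of the list in UV 941 were in Trdv4-positive cells, and in Trdv4-negative cells the ratio of Rux to UV turned to 2.25 for Krt17 and 0.04 for Lgals7. Restricting the cells to those under 1% keratin UMIs left 139, 31 and 47 gamma-delta cells. The part of these transcripts in the other results was not tested.

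Markers of other cells varied between the libraries as well. Melanocyte genes summed to 991 CPM in CON, 84.2 CPM in UV and 50.04 CPM in Rux, led by Dct, which had a UMI in 35 of 145 CON cells and 473 of its 866 CON UMIs in 1 cell, with 5, 4 and 4 of its 5 genes detected. Haemoglobin genes (3, 4 and 4 of 4 detected) summed to 3.67, 70.9 and 3643 CPM, led in Rux by Hbb-bs at 1184 CPM. Fibroblast genes summed to 1124, 1906 and 1725 CPM, led by Dcn, Gsn and Dcn, with 10 of 10 genes detected in each library. The part of these markers in the differences was not tested. Myeloid genes summed to 243, 31.0 and 117 CPM (12, 4 and 8 of 13 detected, led by Cd74), with Fcgr3 at 0 in all libraries. Natural killer and innate lymphoid genes summed to 187, 173 and 267 CPM (6, 7 and 8 of 12, led by Gata3), with Klra4, Klra8 and Il5 at 0 in all, and alpha-beta T cell genes to 456, 594 and 787 CPM (6, 5 and 5 of 8). Endothelial genes, led by Pecam1, summed to 92.4, 377 and 344 CPM (6, 4 and 5 of 6) and mast cell genes, led by Kit, to 44.6, 235 and 80.1 CPM (5, 5 and 4 of 6) with Fcer1a at 0. B cell and plasma cell genes, led by Ighm, summed to 67.9, 22.2 and 10.0 CPM (6, 1 and 1 of 6), and skeletal muscle genes to 20.8, 0 and 10.0 CPM (5, 0 and 3 of 5).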

How the data were processed

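Cells of 3 libraries were measured with 10x 3′ v3.1 chemistry. The authors aligned reads to mm10 with Cell Ranger and deposited filtered UMI counts per gene and cell. The version is 6.1.2 in the submitters' processing notes and 7.0.0 in the file headers. The deposited counts were analysed with Python 3.11.15, numpy 2.4.6, scipy 1.17.1, pandas 2.3.3 and scanpy 1.11.5, and with R 4.3.3, edgeR 4.0.16 and DESeq2 1.42.0. Doublets were kept in the main analysis and removed by Scrublet in an alternative (25, 5 and 4 gamma-delta cells of CON, UV and Rux were scored).

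The members and the 22 gene lists were chosen with earlier results of these data known. CPM are UMIs of a gene per 1000000 UMIs of the class, with exact Poisson intervals, and shares have exact Clopper-Pearson intervals. Ratios between libraries add 0.5 UMI to both counts and have exact conditional binomial intervals. PCR reads were collapsed by molecular identifier by the authors, and intervals and floors of 3 counts cover counting error only. No test between conditions was possible with 1 library each. Class contrasts summed UMIs per library and class (6 sums) and used edgeR's quasi-likelihood test with library as a block, over genes with at least 30 UMIs and a UMI in 3 sums. On simulated counts with known changes, 6.32% of 2-fold and 69.4% of 4-fold changes were recovered for gamma-delta against alpha-beta cells, and 1.11% and 25.5% for Trdv4-positive against Trdv4-negative cells, so a gene that did not pass is not shown to be equal.

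Named genes are those of the rule and markers, the 4 most abundant genes of each list and all list genes past a test or 2-fold, all receptor segments with a UMI, and the 10 highest and 10 lowest genes of each contrast or ratio, and others are said to be named after their values were seen. Not every gene under this rule is named in the text, and a gene is not reported here. Alternatives changed the cell filters, the UMIs required, Trac, doublets, depth, scaling, minimum levels, the test and the libraries used. Those on keratin UMIs, on Trdv4-positive cells alone, on cells with more interleukin-17-list genes and on the deepest cells were added after seeing the data.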

Additional observations from a re-analysis of the deposited data

Results flagged for a closer look

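For 13 of 258 list genes with a UMI in every library (5.04%) the log2 ratio of Trdv4-positive to Trdv4-negative cells had opposite directions in CON and in both irradiated libraries, each with a counting interval that excluded 0. Over all genes with a UMI in every library this was so for 64 of 10094 (0.634%), and the lists were chosen with results of these data known, so the gap is not evidence about them. The difference between libraries was not tested, since each condition has 1 library. The CON ratios include the deepest cells of both classes. Of the 475434 UMIs of Trdv4-negative CON cells, single cells had 111643, 76597 and 64389. The Trdv4-positive CON cells held 1159737 UMIs, with 91403 in the deepest cell. Ratios without these cells are not given, and whether the CON directions depend on them was not tested.

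Higher in Trdv4-positive cells of CON and lower in those of UV and Rux were Fcer1g (3.20 in CON, -2.12 in UV, -2.19 in Rux), Cd7 (2.88, -4.96, -5.32), Klrd1 (2.26, -1.93, -2.38) and the adhesion receptor Cd2 (1.91, -3.25, -1.91), genes of natural killer type receptors and of T cell contact. The T cell signalling genes Themis (1.57, -5.16, -4.29) and Ctla4 (1.32, -1.93, -3.98) followed the same order, as did the G protein regulator Rgs2 (1.22, -1.47, -0.42), the cell death gene Bcl2l11 (0.92, -2.63, -1.52) and the fibroblast gene Dcn (1.13, -1.92, -1.60). Cd7 and Themis had no UMI in Trdv4-positive cells of UV or Rux, and Ctla4 had none in those of Rux. The ratios of these genes there rest on the added 0.5 UMI, so only their upper interval limits are bounds. In UV and Rux these were -1.82 and -2.33 for Cd7 and -2.05 and -1.18 for Themis, and in Rux -0.82 for Ctla4. For Themis 10 of the 15 Trdv4-negative UMIs were in 1 cell in both UV and Rux, and for Ctla4 22 of the 33 Trdv4-positive CON UMIs were in 1 cell.

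Lower in Trdv4-positive cells of CON and higher in those of UV and Rux were Maf (-0.48, 1.42, 0.90), a transcription factor of interleukin-17-making cells, Cxcr6 (-0.53, 1.12, 1.10), a chemokine receptor of tissue lymphocytes, Pim1 (-0.77, 0.61, 0.53) and the keratinocyte gene Lgals7 (-0.17, 4.74, 1.19). Of the 231 Trdv4-positive UMIs of Lgals7 in UV, 181 were in 1 cell.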

How the results depend on the processing

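The order of the gamma-delta share (CON above Rux above UV) and of the Trdv4-positive share (CON above UV above Rux) was the same in all 8 settings of the cell filters, but the CON interval of the Trdv4-positive share lay above the others in only 4 of them. Of these shares 3 moved outside their interval: the gamma-delta share of CON to 0.922% when cells with a Trac UMI were left out, that of Rux to 0.302% and the Trdv4-positive share of CON to 58.0% with cells thinned to 2000 UMIs. The 32 genes between gamma-delta and alpha-beta cells became 149 with DESeq2, 512 with no filter on low counts, 11 without the library block, 112 with doublets removed, 82 without Trac, 61 after thinning and 146 with an alpha-beta gate on Trac, Trbc1 or Trbc2, and between 0 and 228 with a library left out. The 1 gene between Trdv4-positive and Trdv4-negative cells became 8, 35 and 0 in the first 3 of these, 0 without Trac, 1 other gene (lower) after thinning, 0 with cells under 1% keratin UMIs, and between 0 and 3 with a library left out. Genes past 2-fold numbered 1600, 311 and 1978 in UV against CON, Rux against UV and Rux against CON with the minimum lowered to 20 CPM. Within cells with more interleukin-17-list genes they numbered 256 in UV against CON and 475 in Rux against CON. In those cells without the deepest CON cells they numbered 177 and 185. In Trdv4-negative cells they numbered 197 in Rux against UV. Among the 10 highest and 10 lowest genes of each comparison, those that reversed were Acta2 in UV against CON (-0.87 in Trdv4-negative cells), Txk in UV and Rux against CON (-0.22 and -0.14 in cells with more interleukin-17-list genes without the deepest CON cells), and in Rux against UV Phf6 (-0.28 in cells with more interleukin-17-list genes), C3 (-0.70 with doublets removed, -0.33 in Trdv4-positive cells), Krt17 (2.25) and Lgals7 (0.04), both in Trdv4-negative cells. Of list genes past 2-fold, 20 of 55 in UV against CON, 9 of 71 in Rux against CON and 0 of 22 in Rux against UV turned in some setting in which they met the minimum. In UV against CON these were, within cells with more interleukin-17-list genes without the deepest CON cells, Il17f (-1.37), 5830411N06Rik (-1.13), Il17a (-0.86), Il7r (-0.54), Ifngr1 (-0.52), Cish (-0.40), Cxcr6 (-0.39), Il23r (-0.29), Jaml (-0.01), Runx3 (0.71), Egr1 (0.24), Tubb5 (0.24) and Dmkn (0.14), in Trdv4-negative cells Fcer1g (1.57), Nkg7 (1.20), Cd2 (1.13), Il12rb2 (0.88) and Maf (-0.03), in Trdv4-positive cells Klrc1 (-0.25), and with equal weight per cell Col3a1 (-0.09). In Rux against CON they were Fcer1g (1.45), Cd7 (1.37), Nkg7 (1.29) and Il12rb2 (0.07) in Trdv4-negative cells, and Sparc (-0.01) with equal weight per cell. Cish (-0.34), Il23r (-0.17), 5830411N06Rik (-0.15) and Stat4 (-0.01) turned in cells with more interleukin-17-list genes without the deepest CON cells. The cause was not tested, and no setting left the deepest CON cells out of the Trdv4-negative cells alone. The restrictions on keratin, on the deepest cells, to Trdv4-positive cells and to cells with more interleukin-17-list genes were chosen after seeing the data. No paired analysis was possible because each condition has 1 library, and the class contrasts already had the library as a block. With 1 library a condition, 31 UV and 47 Rux cells, and single cells behind some sums, depth limits each ratio to counting error.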

Other observations

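Within the cells with more interleukin-17-list genes, 3 receptor and adhesion genes, named after their values were seen, had ratios of Rux to UV whose counting intervals lay above 0. Itgae, the integrin partner of E-cadherin, was at 47.1 CPM in UV and 212 CPM in Rux (log2 ratio 2.10, 1.07 to 3.46), and the activating receptor gene Klrk1 at 241 and 635 CPM (1.38, 0.88 to 1.93). Tcrg-C1 was at 129 and 270 CPM (1.04, 0.33 to 1.84). In CON without the deepest cells the same genes were at 128, 442 and 137 CPM. With 1 library a condition these differences could not be tested.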
